A study of Sus scrofa with 4 samples.

Results

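T, GATA4, GATA6, SOX17, FOXA2 and HNF4A are transcription factors that direct the formation of mesoderm and endoderm, and this is an account of the open chromatin around their genes in porcine fetal fibroblasts. The 6 genes, of 19550 protein-coding gene models of the RefSeq annotation (Sscrofa11.1), were selected on earlier results of these same peak lists. T, the table's symbol of TBXT, was chosen by its peaks at 1 end of the gene, which were called in both control libraries and in neither BRG1 library. For each gene, every peak that overlapped the gene model or the 20 kb on both sides was taken from each of the 4 libraries. This gave 73 peaks, which merged into 26 regions, of 119900 regions on the placed chromosomes.

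Chromatin accessibility had been profiled by ATAC-seq, in which the transposase Tn5 cuts and tags accessible DNA. The 2 control libraries (control 1 and control 4) came from wild-type PFFs, a fibroblast line from skin, with the vector pTK-642. The 2 BRG1 libraries (BRG1 1 and BRG1 4) came from PFFs labelled BRG1-overexpressed, with pTK-642-BRG1. All 4 were serum-starved, and the cells served as donors for cloned embryos. BRG1 is an ATPase of the BAF complex, which slides and evicts nucleosomes. Separate cultures are not named in the labels, so the spread between libraries may be technical.

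T (brachyury) is a T-box factor switched on in the primitive streak, where mesoderm forms. GATA4 and GATA6 are zinc finger factors of extraembryonic endoderm, heart and gut, SOX17 is an HMG-box factor of definitive endoderm, FOXA2 is a forkhead pioneer factor of endoderm and the node, and HNF4A is a nuclear receptor of visceral endoderm and liver. These factors are best known from embryonic and epithelial tissues, and GATA4 and GATA6 are also known from mesenchymal cells of several organs. In a fibroblast, a peak near such a gene shows that the DNA there is accessible, and does not measure expression.

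The 4 lists held 90851 to 107475 peaks, the BRG1 lists being the shorter, and relative depth in BRG1 1, the shallowest library, was 81.2% of that in control 1. BRG1 4 stood apart by wider peaks, with a median of 541 bp against 396 to 404 bp in the others. Of 10 fibroblast markers, 8 had a peak within 1 kb of an end of the gene model in all 4 libraries. The same held for 1 of 4 hepatocyte and endoderm markers, 1 of 4 epithelial, 1 of 4 endothelial and 2 of 3 matched cardiac muscle markers, against 68.2% of all protein-coding genes.

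The members' windows held 20 peaks in control 1 and 21 in control 4, against 16 in BRG1 1 and 16 in BRG1 4. The group means were 20.5 ± 0.707 for control and 16 ± 0 for BRG1 (SD, n = 2 each), a ratio of 0.780, while the whole lists had a ratio of 0.877. Both BRG1 libraries lay below both controls, in the windows as in the whole lists. The genes had been chosen with these calls known, and 2 against 2 libraries cannot give an exact permutation p below 0.33, so no test was made. Lists cut to the same length, the top 90851 peaks of each, gave 15, 17, 15 and 16 peaks in the same order, where the groups overlapped and the ratio was 0.969.

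Of the 26 regions, 12 (46.2%) were called in all 4 libraries, against 61.9% of all regions. Another 3 regions (11.5%) were called in both controls and in neither BRG1 library, against 4.41% of all regions, a share from which nothing is read because the choice of T used this contrast. No region was called in both BRG1 libraries and in neither control, against 0.740% of all regions. The other 11 regions were called in 1 to 3 libraries in another combination, 7 of them in a single library. The share of single-library calls among all regions was not computed, so nothing is read from these numbers. The map of the windows shows that HNF4A, GATA4 and SOX17 held 10 of the 12 regions called throughout, GATA6 and FOXA2 held 1 each, and T held none.

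**Figure D1:**
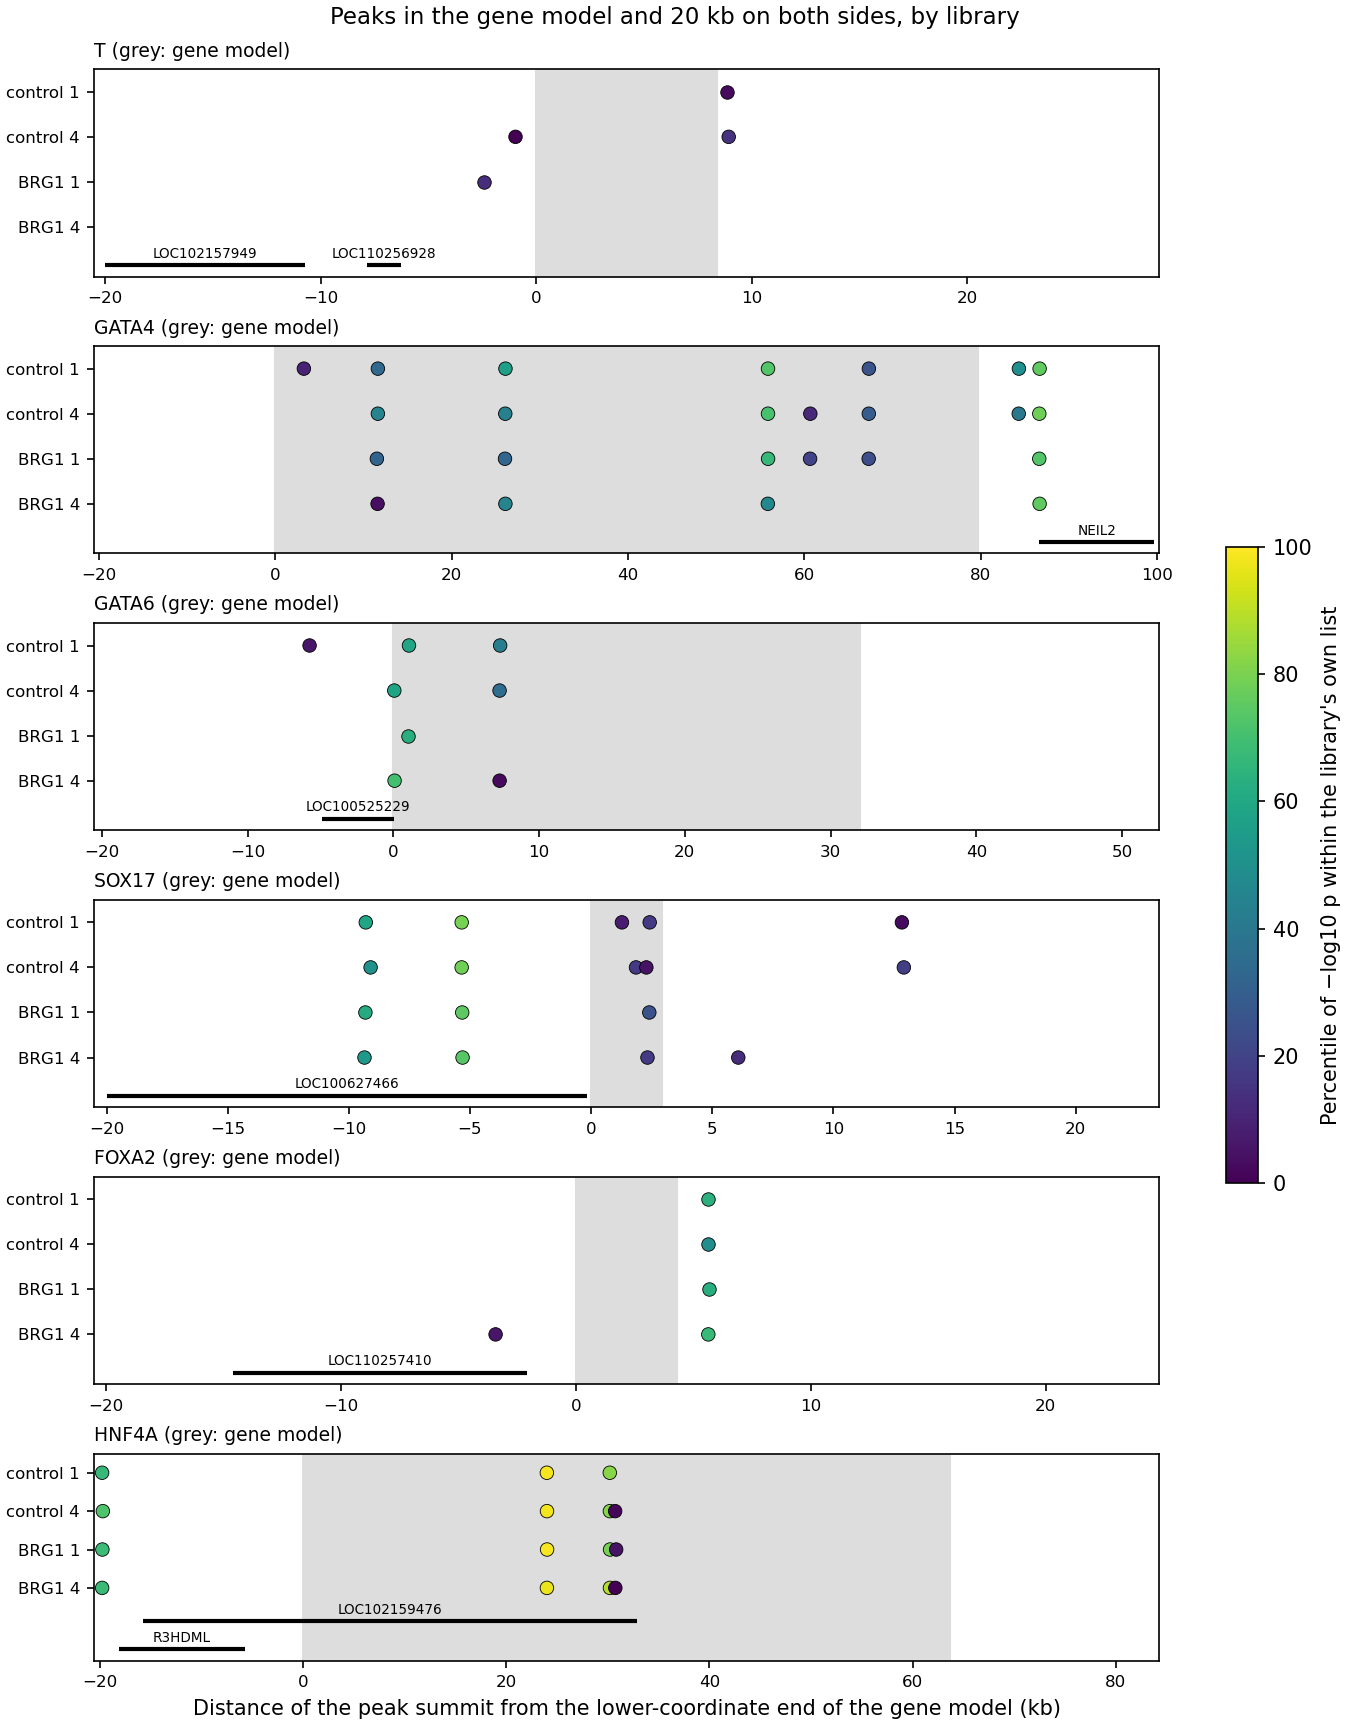
Peaks of the 6 genes with 20 kb on both sides, 1 row per library. The x axis gives the distance of each peak summit from the lower-coordinate end of the gene model in kb, the colour gives the percentile of −log10 p within the library's own list, grey marks the gene model and black bars mark other gene models. The window of T held 1, 2, 1 and 0 peaks, all of low percentile, while HNF4A held a peak at percentile 96.9 or above in every library.

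T lies on chromosome 1 from 2717165 to 2725561. Its window held 1 peak in control 1 and 2 in control 4, against 1 in BRG1 1 and none in BRG1 4. At the higher-coordinate end, control 1 had a peak from 2725903 to 2726173 and control 4 one from 2725932 to 2726155, starting 342 and 371 bp outside the gene model with summits 85 bp apart. Both peaks were weak, and neither BRG1 library had a peak there. The authors' fold sets the pileup of tags at a peak summit, plus 1, against the local background, plus 1, and was 3.77 in control 1 and 5.02 in control 4, and the −log10 q was 3.45 and 6.19. The fold and p-value together correspond to a pileup of 10 tags in control 1 and 13 in control 4, where 7 tags sufficed for a call at the lowest background of each of the 4 libraries. The peaks stood at percentiles 3.09 and 14.1 of their own lists by −log10 p. Among all 5286 regions called in both controls and neither BRG1 library, the T region ranked 4307 from the highest by its mean percentile of 8.62, below their median of 16.6.

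The other peaks of the T window were each seen in a single library, below the lower-coordinate end. Control 4 had one 927 bp away, and so within the 1 kb that counts as a gene end, with a pileup of 11 tags at percentile 0.189, near the weakest of its list. BRG1 1 had one 2299 bp away, with a pileup of 16 tags and a −log10 q of 6.46 at percentile 13.0, a rank within the range of the control peaks at the other end. The window of T therefore held a single-library peak of BRG1 1 at one side of the gene and the shared peak of the controls at the other. The gene table gives no strand, so neither end can be called the transcription start from it.

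The T call was lost in 3 of the settings tried. With a −log10 q of at least 5 in every list the peak of control 1 dropped out, and the end was then called in control 4 alone. With lists of equal length control 1 also lost its peak, and the peak of control 4 was among 2765 peaks tied at its −log10 p, where the shortened list ends. With a gene end of 3 kb in place of 1 kb, the peak of BRG1 1 counted as a gene-end peak, and T was no longer specific to the controls. In the 20 kb windows of 5 other protein-coding genes the 4 libraries had the same counts as at T (1, 2, 1 and 0), and those of nearest window length were LOC100156587 on chromosome 7, LOC110257823 on chromosome X and ADGRF4, an adhesion G protein-coupled receptor, on chromosome 7. Windows with no peak in BRG1 4 were those of 7.95% of protein-coding genes.

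GATA4 lies on chromosome 14 from 14858470 to 14938156 and had the most peaks of the 6 genes in every library but BRG1 4, where SOX17 and HNF4A had as many, 7 in control 1 and 7 in control 4, against 6 in BRG1 1 and 4 in BRG1 4. These made 8 regions, 6 of them inside the gene model, and no peak lay within 1 kb of either end in any library. The strongest region inside the gene had its summit 55874 bp from the lower-coordinate end (14914187 to 14914683). Its pileup was 48 tags in control 1 and 48 in control 4, against 37 in BRG1 1 and 21 in BRG1 4, and its percentile 72.8, 71.1, 66.8 and 46.9. BRG1 4 was thus the lowest on both measures. It was also the lowest at the region 11620 bp from that end (14869705 to 14870399), with 20, 26, 18 and 10 tags and percentiles of 33.5, 45.0, 32.0 and 3.59. BRG1 4 was not the lowest at the region 26091 bp from the end (14884188 to 14885007), with 40, 29, 24 and 29 tags at percentiles 56.1, 43.3, 33.2 and 45.0.

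The remaining 3 regions inside GATA4 were not called in BRG1 4. That at 67306 bp was called in control 1, control 4 and BRG1 1 with 16, 17 and 15 tags at percentiles 25.6, 29.2 and 23.7. That at 60660 bp was called in control 4 and BRG1 1 with 13 and 14 tags, and that at 3246 bp in control 1 alone with 12 tags. Relative depth, taken from the lowest background, was 92.6% of control 1 in BRG1 4 and 81.2% in BRG1 1. The part that depth and the wider peaks of BRG1 4 have in these missing calls was not tested.

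A region beyond the higher-coordinate end of GATA4 was called in both controls and in neither BRG1 library, at a much higher rank than that of T. It spanned 14942631 to 14942915, began 4475 bp outside the gene model and ended 2214 bp before the model of NEIL2, a DNA glycosylase of base excision repair. The pileup was 37 tags over a background of 4.76 in control 1 and 30 over 4.26 in control 4, with −log10 q of 18.8 and 14.1. The summits lay 20 bp apart. The percentiles were 49.3 and 39.5, and the region ranked 67 from the highest of the 5286 regions with the same call. Both peaks stayed with a −log10 q of at least 5 in every list and with lists of equal length. These settings only remove peaks, so they could not have shown a BRG1 peak there.

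The next region, 1887 bp away across the lower-coordinate end of NEIL2 (14944802 to 14945704), was called in all 4 libraries with 69 tags in control 1 and 72 in control 4, against 58 in BRG1 1 and 58 in BRG1 4. Its percentiles of 75.6, 78.0, 72.9 and 75.7 lay close together. At the background measured there, 11 tags in BRG1 1 and 12 in BRG1 4 would have reached the lowest −log10 p of their lists. The region between the genes had 37 and 30 tags in the controls. A pileup that gave no peak is not recorded in a peak list, so the level of the BRG1 libraries there is unknown.

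GATA6 lies on chromosome 6 from 107282709 to 107314725, and its window held 3 peaks in control 1 and 2 in control 4, against 1 in BRG1 1 and 2 in BRG1 4. A broad region across the lower-coordinate end (107282450 to 107284205) was called in all 4 libraries, with 53 tags in control 1 and 52 in control 4, against 57 in BRG1 1 and 64 in BRG1 4. It was slightly higher in both BRG1 libraries than in both controls, with percentiles of 58.8, 58.6, 63.2 and 70.2. That order of percentiles was found at 9.04% of all regions called in all libraries. The peaks were 1534 to 1709 bp wide. Their summits fell at 2 places, 69 and 89 bp inside the gene model in control 4 and BRG1 4 and 1077 and 987 bp inside it in control 1 and BRG1 1, so the place of the summit followed the library number and not the group. The protein-coding model LOC100525229 overlaps this end of GATA6, so the region lies at an end of both genes.

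A second region lay inside GATA6, 7296 bp from that end (107289853 to 107290180). Its pileup was 22 tags in control 1, 19 in control 4 and 9 in BRG1 4, and it was not called in BRG1 1. The percentiles of 42.01 and 35.1 in the controls stood apart from 2.49 in BRG1 4. Within 1 gene, the region at the end thus ranked higher in both BRG1 libraries than in both controls. The region inside ranked higher in both controls than in BRG1 4 and has no rank in BRG1 1. With a −log10 q of at least 5 the peak of BRG1 4 dropped out, and the inner region then had the same call as that beyond GATA4. The remaining peak of the window, 5689 bp below the gene in control 1, had 11 tags at percentile 5.94.

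SOX17, a short gene on chromosome 4 from 76854218 to 76857143, held 5 peaks in control 1 and 5 in control 4, against 3 in BRG1 1 and 4 in BRG1 4. Its 2 strongest regions lay below the lower-coordinate end, inside the model of LOC100627466, whose end is 158 bp from SOX17. The nearer (76848444 to 76849420), 4798 bp from SOX17, had 89 tags in control 1 and 80 in control 4, against 71 in BRG1 1 and 60 in BRG1 4, at percentiles 79.4, 78.2, 75.3 and 73.5. The farther (76844755 to 76845285) had 52, 41, 49 and 38 tags at percentiles 59.2, 50.9, 61.2 and 53.9, and the groups overlapped there on both measures. At the nearer region both BRG1 libraries lay below both controls in percentile, an order found at 34% of all regions called in all libraries. They also lay below both controls in tags, which are not scaled for the lower relative depth of BRG1 1.

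Peaks at the gene itself ranked lower. A region at the higher-coordinate end of SOX17 (76855924 to 76857208) was called in all 4 libraries with 18 tags in control 1 and 17 in control 4, against 21 in BRG1 1 and 16 in BRG1 4 at its strongest peak. Its percentiles were 16.6, 16.5, 25.2 and 17.2. By these strongest peaks, BRG1 4 was close to the controls in percentile and the lowest in tags. Control 4 had 2 peaks in the region, joined by the 1059 bp peak of BRG1 1, the only one that reached past the end of the gene model. The stronger peak of control 4 (76855924 to 76856183) did not overlap the peaks of control 1 and BRG1 4. Its other peak (76856436 to 76856821) did, with 14 tags at percentile 4.76, below BRG1 4 on both measures. Beyond the gene, 9748 bp from its end, a region (76866891 to 76867237) was called in control 1 with 10 tags and in control 4 with 14 tags and in neither BRG1 library. It resembled the T region in rank, at percentiles 3.09 and 18.5, and it too was left in control 4 alone with a −log10 q of at least 5 and with lists of equal length. Single-library peaks lay inside the gene in control 1, with 15 tags, and 2901 bp beyond it in BRG1 4, with 14 tags.

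FOXA2 lies on chromosome 17 from 29997397 to 30001704 and had 1 peak in control 1, control 4 and BRG1 1 and 2 in BRG1 4. The shared region (30002430 to 30003212) began 726 bp beyond the higher-coordinate end. Its pileup was 48 tags in control 1 and 34 in control 4, against 46 in BRG1 1 and 48 in BRG1 4, and its percentiles were 63.7, 48.7, 63.0 and 67.3. Control 4 was the lowest, the groups overlapped, and the 4 summits lay within 20 bp. The second peak of BRG1 4, 3350 bp below the gene and inside LOC110257410, had 10 tags at percentile 5.57.

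HNF4A, on chromosome 17 from 46783772 to 46847505, held the most accessible site of the 6 windows and had no peak within 1 kb of either end. The site (46807578 to 46808338) lay inside the gene model, 24026 bp from the lower-coordinate end, and also inside the long non-coding model LOC102159476. Its pileup was 306 tags in control 1 and 287 in control 4, against 291 in BRG1 1 and 199 in BRG1 4, over backgrounds of 11.2, 10.7, 9.90 and 9.06. The percentiles were 98.5, 98.2, 98.9 and 96.9, so that it was among the strongest peaks of every list, and the summits lay within 21 bp. Its start was at the same base in 3 libraries and 1 bp off in control 1.

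A second strong site of HNF4A lay 30223 bp from the same end (46813628 to 46814208), with 90 tags in control 1 and 88 in control 4, against 68 in BRG1 1 and 98 in BRG1 4 at percentiles 82.4, 81.9, 79.2 and 88.3. BRG1 1 was the lowest and BRG1 4 the highest, so the groups overlapped. Next to it a weak region was called in control 4, BRG1 1 and BRG1 4 with 15 to 16 tags, at percentiles of 0.382 to 4.87. At the outer edge of the window, 19511 bp below the gene, a region (46762936 to 46764261) was called in all 4 libraries with 51 tags in control 1 and 59 in control 4, against 51 in BRG1 1 and 45 in BRG1 4. The protein-coding model R3HDML (46765639 to 46778110) lies between that region and HNF4A. The window of HNF4A thus held 3, 4, 4 and 4 peaks, and the groups differed by no region called in both libraries of one group and neither of the other.

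**Figure D2:**
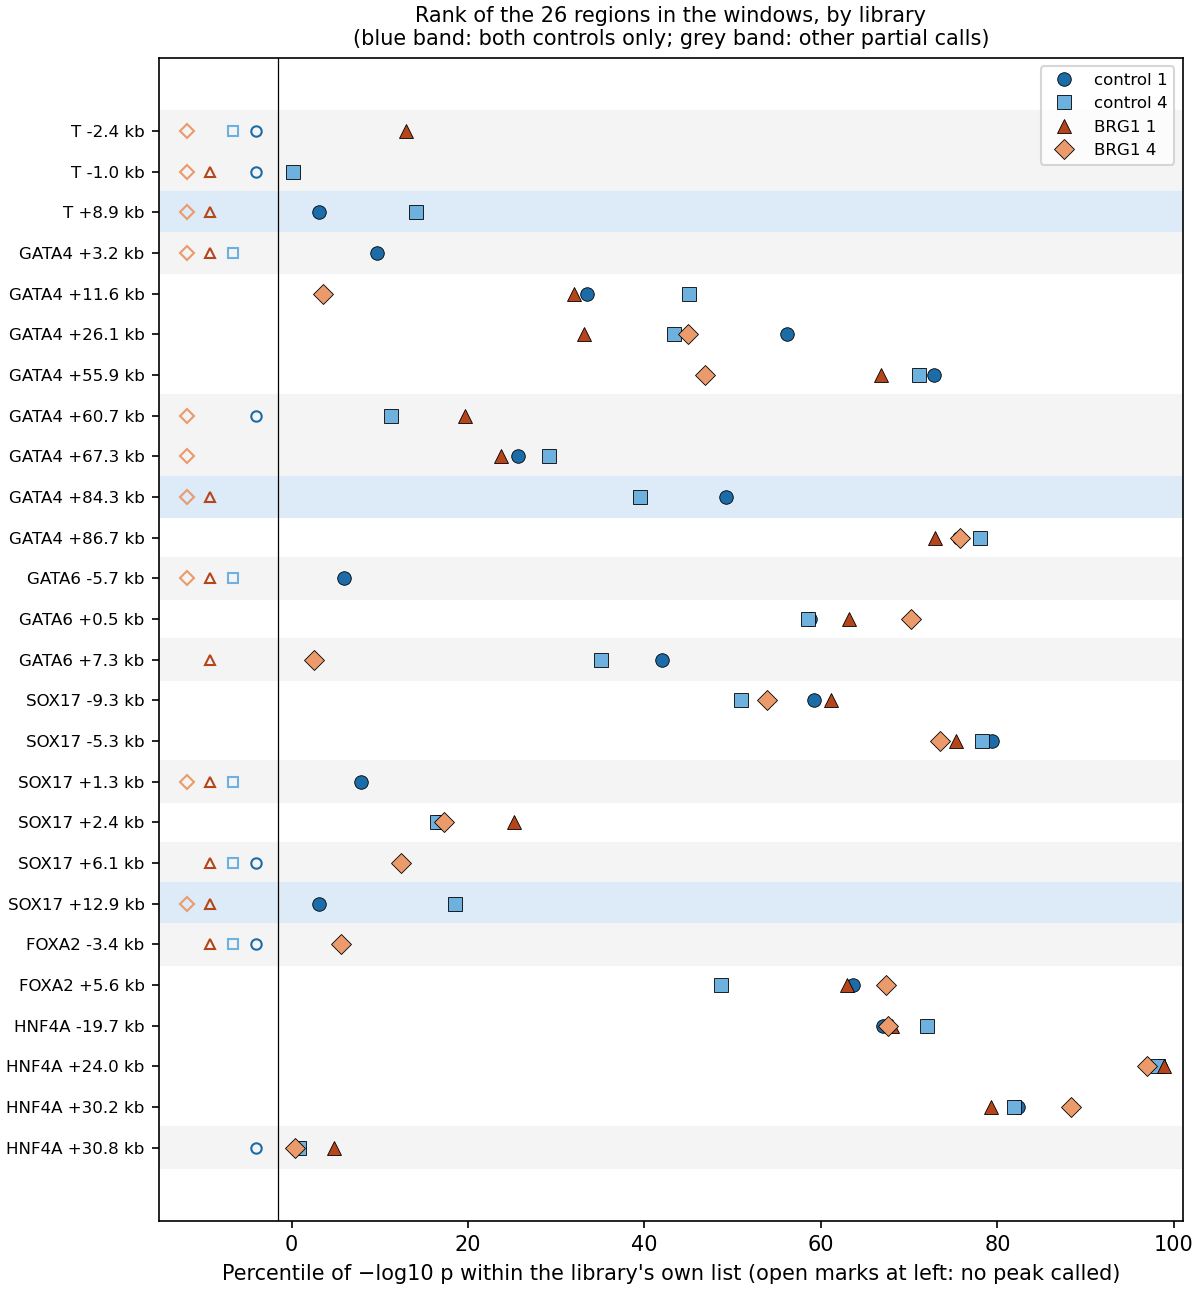
Percentile of −log10 p within the library's own list (x axis, 0 to 100) for each of the 26 regions (y axis, by gene and the distance of the median summit from the lower-coordinate end), with 1 mark per library at its strongest peak. Open marks at the left stand for libraries without a peak; of the 3 blue bands, called in both controls and neither BRG1 library, that of GATA4 lies at percentiles 39.5 and 49.3 and those of T and SOX17 between 3.09 and 18.5.

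Regions shared by all libraries and regions called in some of them differed in rank. This is only a description, since the grouping is by the calls themselves. The 49 peaks of the 12 shared regions had a median percentile of 66.8, the 6 peaks of the 3 control regions 16.3, and the 18 peaks of the other 11 regions 10.5. Median widths were 566, 275 and 243 bp. Over all 5286 regions called in both controls and neither BRG1 library, the mean percentile of the controls had a median of 16.6. In the 12 shared regions the summits of the 4 libraries lay a median of 47.5 bp apart, with the widest spread, 1008 bp, at the end of GATA6. Within the 12 shared regions, both controls had higher percentiles than both BRG1 libraries in 3, those 11620 and 55874 bp inside GATA4 and the nearer one below SOX17, against 34% of all regions called in all libraries. Both BRG1 libraries had the higher percentiles in 2, those at the ends of GATA6 and SOX17, against 9.04% of all such regions. At the SOX17 end the order rested on 17.2 in BRG1 4 against 16.6 in control 1 and 16.5 in control 4. The 16.5 was that of a control 4 peak that did not overlap the peaks of control 1 and BRG1 4. The control 4 peak that overlapped them stood at percentile 4.76. In the other 7, all 3 of HNF4A among them, the groups overlapped.

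Peaks at gene ends divided the 6 genes. GATA6, SOX17 and FOXA2 had a peak within 1 kb of an end in all 4 libraries, GATA4 and HNF4A in none, and T in both controls and neither BRG1 library. Over all protein-coding genes these calls made up 68.2%, 25.8% and 0.532%. No member had a gene-end peak in both BRG1 libraries and neither control, a call made for 0.199% of all genes. The shared peak of GATA6 was at the lower-coordinate end and those of FOXA2 and SOX17 were at the higher-coordinate end. Control 1 also had a peak within 1 kb of the lower end of SOX17, and control 4 one within 1 kb of the lower end of T.

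By peaks per length, SOX17 was the densest of the 6 genes. Its window of 42.9 kb had 1.17 peaks per 10 kb in control 1 and 1.17 in control 4, against 0.699 in BRG1 1 and 0.932 in BRG1 4, at percentiles 79.1, 79.2, 55.2 and 74.0 of the windows of all protein-coding genes. The medians over all genes were 0.693, 0.683, 0.637 and 0.602 peaks per 10 kb. The windows of T, GATA4, GATA6, FOXA2 and HNF4A were below the median in every library. T had 0.207, 0.413, 0.207 and 0 peaks per 10 kb, at percentiles 12.8, 27.7, 14.9 and 3.98. HNF4A, with 0.289, 0.386, 0.386 and 0.386, lay at percentiles 18.95 to 30.3, although it held the strongest site.

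Of the 12 closest relatives of the members, 6 had a gene-end peak throughout, against 68.2% of all protein-coding genes: EOMES, TBX6, GATA2, SOX7, FOXA1 and FOXA3. The plot of members and paralogs gives the peaks in their windows. Among T-box genes, EOMES, which acts upstream of mesoderm and endoderm, had 8 peaks in control 1 and 10 in control 4, against 7 in BRG1 1 and 7 in BRG1 4, and TBX6, of paraxial mesoderm, had 5, 4, 5 and 5. TBX19, of the pituitary, had 3, 2, 2 and 1 peaks in its window and none at its ends. At EOMES the controls lay above the BRG1 libraries and at TBX6 the groups overlapped.

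In the GATA family, GATA2, of blood progenitors, had 5, 6, 5 and 7 peaks in its window. GATA3, of trophoblast and T cells, had 9, 6, 6 and 7 peaks and a gene-end peak in all but BRG1 1. GATA5, of heart and gut, had 5, 4, 5 and 3 peaks with a gene-end peak in BRG1 1 alone, and GATA1, of red blood cells, had 1 peak in each library and none at its ends. Among SOX17's relatives, SOX7 had 4, 6, 4 and 4 peaks, and SOX18, an endothelial factor, had 4, 6, 5 and 3 with one in all but BRG1 4. FOXA1 had 5, 3, 3 and 5 peaks and FOXA3 4, 4, 4 and 3. HNF4G had 4, 4, 4 and 5 and, like HNF4A, none at its ends. EOMES was the only one of the 12 with more peaks in both controls than in both BRG1 libraries, and GATA4 and SOX17 were the only such members. The same order was found at 19% of all protein-coding genes, in lists that were shorter for both BRG1 libraries.

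**Figure D3:**
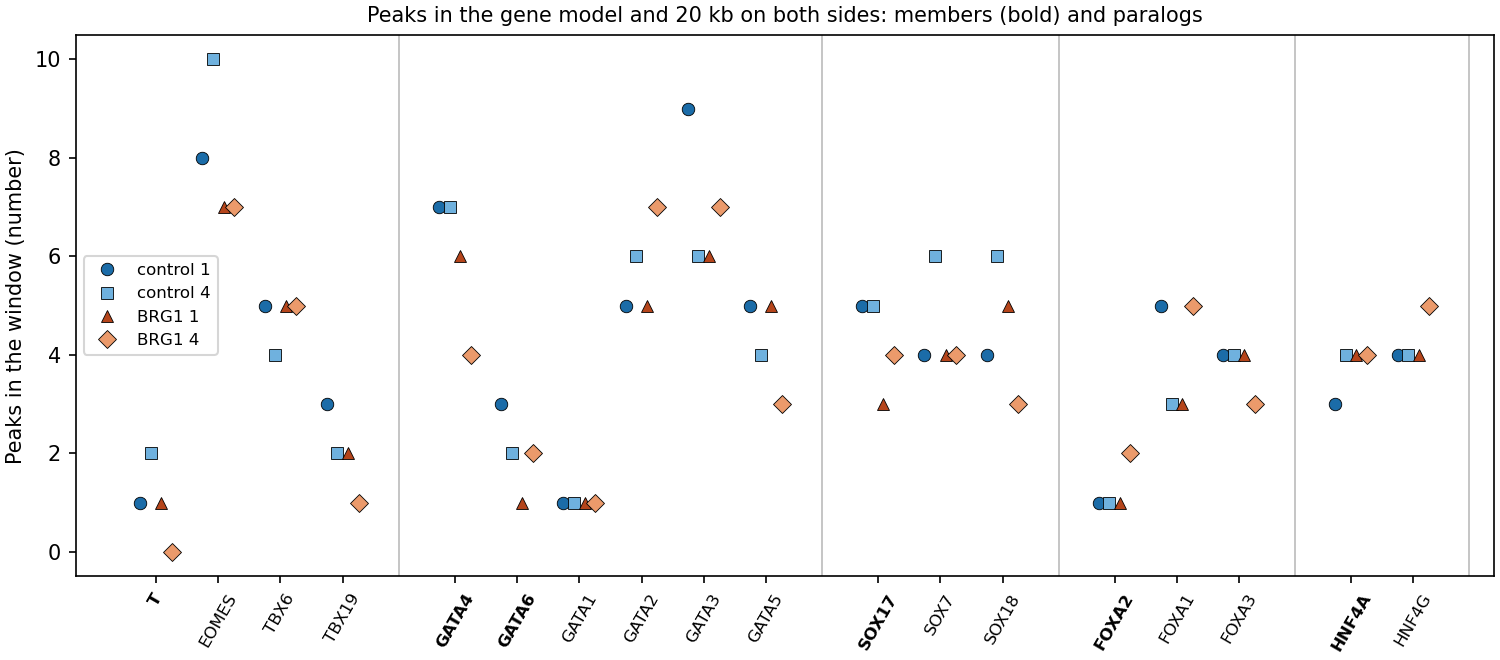
Number of peaks in the gene model and 20 kb on both sides (y axis) for the members, in bold, and their closest relatives, with 1 mark per library. T was the only gene plotted with a library at 0, and EOMES had the highest count, 10 in control 4.

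Of the wider set of 44 genes of these lineages, the paralogs included, a gene-end peak was called throughout in 24 (54.5%), in none in 15 and in another combination in 5. Over all protein-coding genes the share was 68.2% throughout and 25.8% in none. None was called in both libraries of one group and neither of the other, where all genes had 0.532% for control and 0.199% for BRG1. Regulators of mesoderm, such as MESP1, HAND2, FOXF1 and TWIST1, had one in all 4 libraries in 11 of 13 genes, and endoderm regulators in 4 of 8, counts from lists too short to be set against each other or against the 68.2% of all genes. Targets of these factors in liver and visceral endoderm had one in 1 of 6, APOA1, an apolipoprotein, while AFP, ALB, APOB, TTR and SERPINA1, which encode liver plasma proteins, had none. ONECUT1, a liver-enriched homeobox factor, had one in all 4 libraries. Genes other than the paralogs were named in this paragraph after their values were seen.

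**Figure D4:**
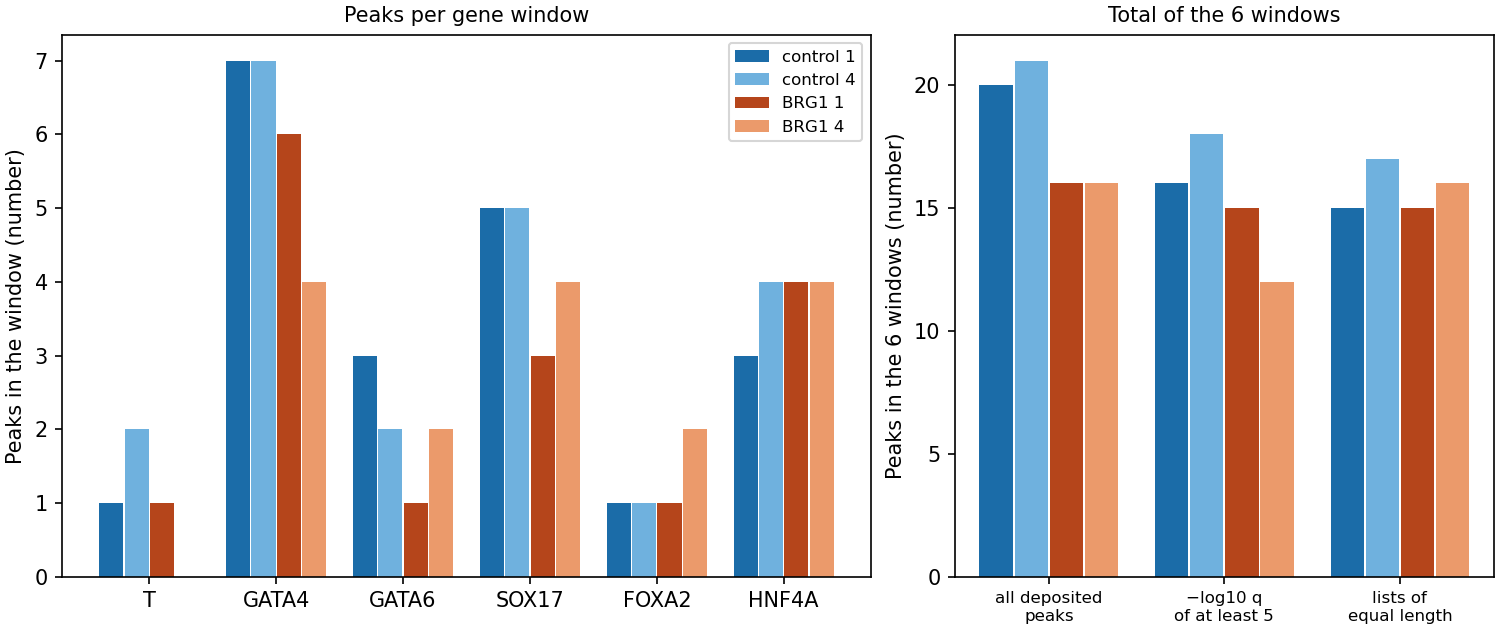
Number of peaks per gene window (left) and in the 6 windows together under 3 settings (right), with 1 bar per library. With all deposited peaks the totals were 20 and 21 in controls and 16 and 16 in BRG1 libraries; with lists of equal length they were 15 and 17 against 15 and 16.

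Base pairs under peaks followed the counts. The 6 windows held 10370 bp under peaks in control 1 and 9830 in control 4, against 8882 in BRG1 1 and 8881 in BRG1 4, a ratio of 0.879 of the BRG1 to the control mean. Each BRG1 library had fewer base pairs than each control. Base pairs under the whole lists were not computed, and the peaks of BRG1 4 were wider. Whether this order is particular to the 6 windows was therefore not tested. With a flank of 50 kb the groups overlapped, at 19254 and 18248 bp in the controls against 16851 and 19122, a ratio of 0.959. With lists of equal length the ratio was 1.001, and the controls had 8865 and 8674 bp against 8682 and 8881, which overlap.

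The limit of 20 kb left out regions close by. The nearest to a window was a region called in all 4 libraries 20660 bp beyond T (2746221 to 2746513), at percentiles 31.9, 18.5, 15.3 and 19.4, which outranked the control peaks of T in each library. Just inside the limit lay the region 19511 bp below HNF4A. T therefore had a peak in BRG1 4 within a slightly wider window, and its count of 0 in that library depends on this limit.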

How the data were processed

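ATAC-seq peak lists of 4 libraries were used. The authors deposited 1 narrowPeak list per library. The submitters' processing notes name Sscrofa11.1 and, with no version or role, MACS2, SAMtools, Bowtie, BWA and FastQC. The fold (a ratio of summit pileup to background, each plus 1), the −log10 p-value, the −log10 q-value and the score (10 times the −log10 q, cut to a whole number) are the authors' values within each deposited list. How duplicates, the Tn5 shift and extension were handled is not given in the sources used here, and it can change the number and width of peaks.

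Peaks that overlapped by at least 1 bp were merged across libraries on chromosomes 1 to 18, X and Y. Gene positions came from the RefSeq table of the same build, without strand or exons. Ranks are percentiles of −log10 p within a list. Pileup and background were solved from fold and p-value (tolerance 0.0015), and at least 99.9% of sampled peaks gave a whole-number pileup. The lowest background per library served as relative depth. The lists hold no read totals and so give no counting interval. The alternatives were flanks of 5 and 50 kb, a −log10 q of at least 5, lists of equal length, an overlap of 50% of the shorter peak, a gene end of 3 kb, the replicate block and each library left out. The calling steps were tested on simulated data. Python 3.11.15, pandas 2.3.3 and scipy 1.17.1 were used.

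The members and lists were chosen with earlier results of these data known, so values at the members are descriptions without tests. Genes named are the members, their paralogs, genes whose gene ends were called in both libraries of 1 group only, genes overlapping the windows and the 3 genes with counts most like those of T. Others, the mesoderm, endoderm and liver genes of the lineage lists and FDFT1, were named after their values were seen. The planned motif comparison was not run, since no sequence was used here.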

Additional observations from a re-analysis of the deposited data

How the results depend on the processing

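With all deposited peaks the ratio of BRG1 to control peaks in the windows was 0.780; a flank of 5 kb gave 0.833, a flank of 50 kb 0.845 and lists of equal length 0.969, and leaving out each library gave 0.762 to 0.8. The ratio of base pairs was 0.879, and it was 1.001 with lists of equal length, 0.959 with a flank of 50 kb, where the groups overlapped, 0.918 with a −log10 q of at least 5 and 0.8565 to 0.9035 with each library left out. Regions called in both controls only numbered 3, fell to 1 with lists of equal length and were 4 to 6 with each library left out (6 without control 4). With a −log10 q of at least 5 they numbered 2, that beyond GATA4 and that inside GATA6, while those of T and SOX17 were lost. Regions called in both BRG1 libraries only numbered 0, were 1 with a flank of 50 kb, and 0 to 2 with each library left out. Regions called in all libraries rose from 12 to 23 with a flank of 50 kb, a longer window. The 1 gene end called in both controls only, that of T, was lost (0 genes) with a −log10 q of at least 5, with lists of equal length and with a gene end of 3 kb, and was 1 with each library left out, a setting under which it could not be lost. Over all protein-coding genes this call numbered 104, and 111, 56 and 99 in the first settings in that order. It numbered 195 to 345 with each library left out. The settings for gene ends by q and by library left out and for base pairs by q and by flank were chosen after seeing the data. With the replicate block, pairing libraries of the same number, the ratio of peaks was 0.781 (0.8 for number 1 and 0.762 for number 4). The cause of the moves was not tested. Of 72 values under alternatives, 56 stayed near the reported value, 15 moved and 1 turned. For regions and genes these compare numbers and not which ones were counted, and the numbers for gene ends with a library left out are included. A fall from 12 regions to 9 with a flank of 5 kb, or from 3 to 2, still counted as near. So did gene ends called in both BRG1 libraries only, which numbered 0 in every setting. The 56 therefore do not measure how stable the results are. A peak missing from a list was not called at that depth, which does not show that the DNA was closed.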

Other observations

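Between 20 and 50 kb from the 6 genes lay 16 further regions, of which 11 were called in all 4 libraries. Of the rest, 1 was called in both BRG1 libraries and neither control, and none in both controls and neither BRG1 library. Over all regions these calls made up 61.9%, 0.74% and 4.41%, and nothing is read from counts this small. The region called in both BRG1 libraries only lay 44364 bp beyond SOX17 (chromosome 4, 76901507 to 76902069), at percentile 1.71 in BRG1 1 and 28.3 in BRG1 4. The 3 regions beyond T in this range, at 20660, 27008 and 32877 bp, were called in all 4 libraries, and the farthest reached percentiles of 79.0 and 74.7 in controls 1 and 4 and of 72.0 and 68.5 in BRG1 1 and BRG1 4, above every peak in the window of T. FDFT1, which encodes squalene synthase, lies on the side of NEIL2 away from GATA4, and the region 37094 bp from GATA4 that overlapped FDFT1 stood at percentiles 99.89, 99.8, 99.89 and 98.6 in the same order.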
